A study of Mus musculus with 27 samples.

Results

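The genes described are those of the proteasome and its immune form, taken as all genes on the array whose symbol begins with Psma to Psmg or Psme followed by a number. The rule found 49 of the 19057 genes named on the array, read by 86 probes, and used no measured value. Of these, 43 had a probe detected on at least 3 arrays and were tested. They were 4 of 7 core alpha subunits, 7 of 7 core beta subunits, 5 of 5 immune subunits, 6 of 6 base ATPases, 10 of 11 other subunits of the regulatory particle, 6 of 7 assembly factors, 2 of 2 other activators, 1 of 2 tissue-restricted core subunits, and 2 genes that share only the name. The last are Psmc3ip, a meiotic recombination factor, and Psme3ip1, a partner of Psme3. Psma1, Psma3, Psma6, Psmb11, Psmd3 and Psmg4 did not pass, with each of their arrays near background. Psma1, Psma3 and Psma6 are core subunits of every cell, so their dim probes say nothing of the genes. 36 members were detected on all 27 arrays.

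RNA of C57BL/6 mouse cells was hybridised to 27 single-colour bead arrays in 8 groups. Neuron (brain of embryonic day 15 to 16), Astrocyte and Microglia (brain, day 3) had 3 arrays each. ESdM_20 and ESdM_22, a pair of embryonic stem cell-derived microglia lines kept in culture for over 51 days, had 3 arrays each, so that each line is 1 derivation. MF had 4 and BM-DC 3 arrays, both from bone marrow and labelled day 7, and CD8_Tnaive had 5 arrays from spleen of mice aged 6 to 8 weeks. The abbreviations MF and BM-DC are used as the labels give them, and no treatment is named. Replicates are numbered without a statement of which animal or culture each came from, so the tests weigh the spread between arrays of a group, part or all of which may be technical. The study asked how near the stem cell-derived lines are to primary microglia. Age, source and cell type go together in these groups and cannot be told apart.

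The proteasome is a barrel of stacked rings that cuts proteins tagged with ubiquitin. The outer rings are made of alpha subunits and gate the entry, and the inner rings are made of beta subunits, of which Psmb5, Psmb6 and Psmb7 carry the cutting sites. Under interferon gamma, and constitutively in many blood cells, Psmb8, Psmb9 and Psmb10 are built in at the places of Psmb5, Psmb6 and Psmb7, which alters the peptides made for MHC class I. Psme1 and Psme2 form a cap that opens the barrel, while the regulatory particle (Psmc ATPases and Psmd subunits) binds, unfolds and feeds in the tagged proteins. Microglia and macrophages are known to hold the immune form and to raise it in inflammation.

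Because members of the immune form moved together in several comparisons, promoter windows of 3 immune genes and of the constitutive partners of 2 of them are shown first. Each runs from 250 bases before to 50 bases after the start, 5′ to 3′ in the sense of the gene, from RefSeq on GRCm38.p6, and capitals mark a motif match. The windows lie at chr17:34187281-34187580 on the minus strand for Psmb9, chr17:34197945-34198244 on the plus strand for Psmb8, chr14:55578244-55578543 on the plus strand for Psme1, chr14:54617946-54618245 on the minus strand for Psmb5, and chr11:70525107-70525406 on the plus strand for Psmb6.
Psmb9: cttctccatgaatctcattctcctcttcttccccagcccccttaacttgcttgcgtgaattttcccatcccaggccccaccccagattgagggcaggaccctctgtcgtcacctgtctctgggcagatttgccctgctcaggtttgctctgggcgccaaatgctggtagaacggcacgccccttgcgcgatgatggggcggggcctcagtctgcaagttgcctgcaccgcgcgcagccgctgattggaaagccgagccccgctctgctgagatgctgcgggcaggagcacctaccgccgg
Psmb8: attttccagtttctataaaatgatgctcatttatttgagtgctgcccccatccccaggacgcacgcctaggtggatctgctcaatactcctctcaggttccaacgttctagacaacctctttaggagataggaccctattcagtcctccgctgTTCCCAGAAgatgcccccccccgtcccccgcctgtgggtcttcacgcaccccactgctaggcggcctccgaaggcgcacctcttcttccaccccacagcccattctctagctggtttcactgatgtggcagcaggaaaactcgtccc
Psme1: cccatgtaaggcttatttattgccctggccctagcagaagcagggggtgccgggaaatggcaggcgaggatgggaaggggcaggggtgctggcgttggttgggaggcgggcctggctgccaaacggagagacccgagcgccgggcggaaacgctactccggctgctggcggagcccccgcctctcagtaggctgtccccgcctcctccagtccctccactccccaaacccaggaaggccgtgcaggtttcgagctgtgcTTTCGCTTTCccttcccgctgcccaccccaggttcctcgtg
Psmb5: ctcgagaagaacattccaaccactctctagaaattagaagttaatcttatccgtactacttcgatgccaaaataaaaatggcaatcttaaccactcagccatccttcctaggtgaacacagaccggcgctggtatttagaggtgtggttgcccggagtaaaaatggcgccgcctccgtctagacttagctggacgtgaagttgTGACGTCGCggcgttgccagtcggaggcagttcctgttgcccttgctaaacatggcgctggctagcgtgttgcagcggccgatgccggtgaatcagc
Psmb6: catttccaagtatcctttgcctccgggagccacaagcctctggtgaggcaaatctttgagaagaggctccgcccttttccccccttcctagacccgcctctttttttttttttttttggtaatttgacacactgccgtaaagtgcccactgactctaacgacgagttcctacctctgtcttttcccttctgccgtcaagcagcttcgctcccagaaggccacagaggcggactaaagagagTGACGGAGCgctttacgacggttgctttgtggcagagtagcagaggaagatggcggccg

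The motifs were searched on both strands and did not overlap each other in these windows. The interferon-stimulated element, searched as GAAA, any 2 bases and GAAA, matched in Psme1 at base 10 after the start as TTTCGCTTTC on the minus strand. It was found in 5 of the 41 windows of members (12.2%) and in 3.49% of all 27025 promoter windows. The gamma-activated site, searched as TTCNNNGAA, matched in Psmb8 as TTCCCAGAA at base 97 before the start. It was in 3 of the 41 windows (7.32%) and in 8.47% of all. The antioxidant element, the letters bound by Nfe2l1 and Nfe2l2, was searched as TGACNNNGC and matched in Psmb5 as TGACGTCGC and in Psmb6 as TGACGGAGC. It was in 6 of the 41 windows (14.6%) and in 12.5% of all. The Psmb9 window held none of these letters, nor did those of the immune genes Psmb10 and Psme2, which are not shown. In the order above, the 3 motifs were in 1, 1 and 0 of 5 immune windows. They were in 2, 1 and 4 of 25 windows of constitutive subunits. The Psmb9 start lies 226 bases from that of Tap1, the peptide transporter gene, on the opposite strand, and the windows share 275 bases. A match describes these letters and is no evidence that a factor binds.

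Levels below are normalized log2 intensities, on which undetected probes lie near 4.3, and each gene was read by 1 probe, so levels are compared only between groups of the same gene. A difference passed at a Benjamini-Hochberg adjusted p below 0.05 in a limma fit over all 12814 genes tested. Median raw intensity per array ranged from 27.6 to 113.0, with the BM-DC arrays the dimmest, and 14247 to 17533 probes were detected. No label names a chip, so chips were inferred here and below from the leading number of each array's identifier. Arrays with the same leading number were taken to lie on the same chip. On this reading, Microglia and both ESdM lines shared 2 chips. Neuron and Astrocyte shared 1 chip. MF, BM-DC and CD8_Tnaive lay on chips of their own, so there chip and cell type cannot be told apart. The labels and the markers disagreed in places. On the arrays labelled Microglia, 5 of 6 microglia markers were undetected (P2ry12, Tmem119, Cx3cr1, Fcrls and Olfml3), although 8 of 9 macrophage lineage genes were detected there. On the Astrocyte arrays all 6 microglia markers and 8 of 9 macrophage lineage genes were detected, beside all astrocyte markers tested. The neuron markers Map2 (10.02) and Stmn2 (10.58) were also read there, while 3 of 7 neuron markers were undetected. On all Neuron arrays 5 of 7 astrocyte markers were detected, among them Slc1a3 (10.95). The macrophage list averaged 8.79 to 9.44 on the Astrocyte arrays and 8.88 to 9.04 on the Microglia arrays. Cd8a was undetected on the CD8_Tnaive arrays, where 4 of 5 T cell markers were detected, and Flt3 and Zbtb46 were undetected in BM-DC. Of those T cell markers, Cd8b1 did not set CD8_Tnaive apart (8.99, against 10.50 in Astrocyte, 9.51 in MF and 7.34 in Neuron). Of 6 dendritic cell markers, 3 were detected on all CD8_Tnaive arrays, among them Cd74 (8.32) and H2-Aa (8.27), and 3 on none. These are whole groups, so no comparison could be made without them. In RNA of bulk cells, fewer cells of a type and less RNA per cell cannot be told apart.

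Across the 8 groups, the immune subunits had wider ranges than the other classes of the particle. The range between the lowest and the highest group mean had a median of 4.20 over the 5 immune subunits, 1.18 over the core alpha, 1.33 over the core beta, 1.503 over the base ATPase, 1.30 over the other regulatory particle and 1.63 over the assembly genes (all log2). Over all members it was 1.499 and over all genes tested 1.93. The widest ranges were those of Psmb8 (6.07), Psmb9 (5.37), Psme2 (4.20), Psme1 (2.91) and the assembly chaperone Psmg3 (2.75). The narrowest were those of the core subunit Psmb1 (0.548), the activator Psme4 (0.643), the testis subunit Psma8 (0.789), and the subunits Psmb3 and Psmd13 (0.793 each). Psma8 lay near background, which narrows its range. An F test across groups passed for 43 of 43 members, against 89.1% of all genes, so that passing it sets the members little apart.

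**Figure D1:**
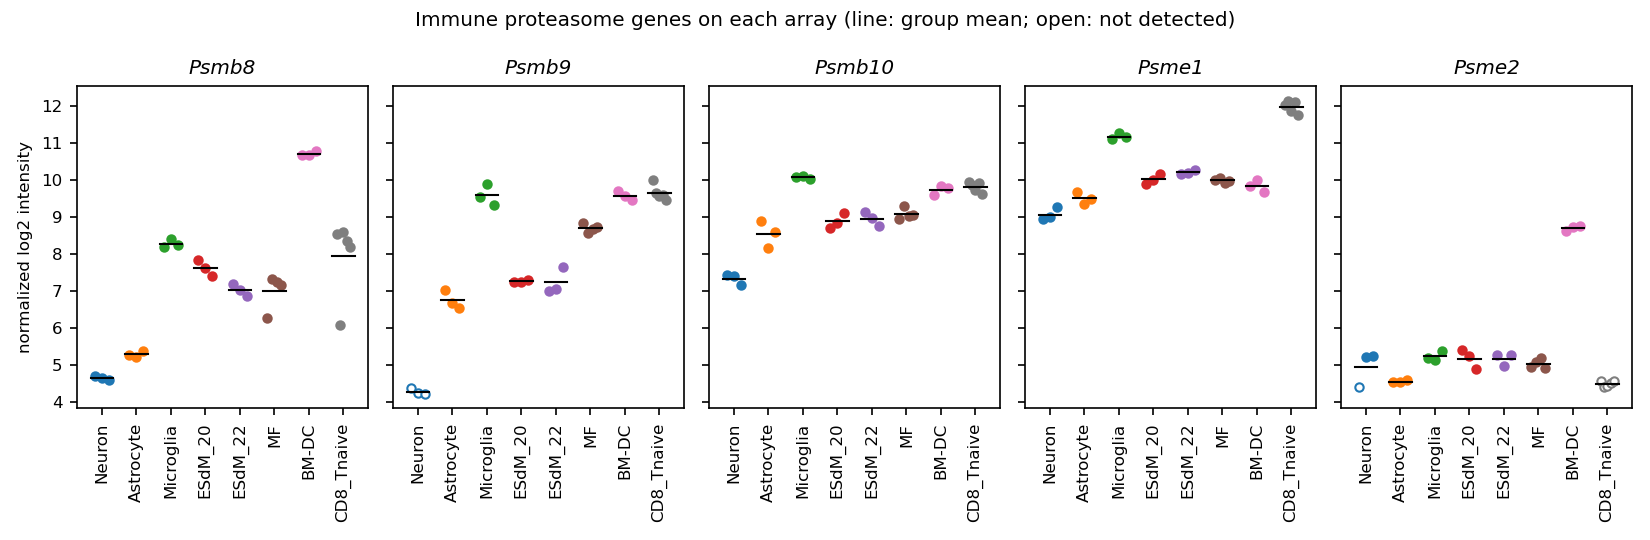
Normalized log2 intensity (vertical axis) of the 5 immune proteasome genes on each of the 27 arrays, by group (horizontal axis). Points are arrays, open points are arrays with the probe not detected, and lines are group means. Psmb8 and Psme2 are highest on the 3 BM-DC arrays, Psme1 on the 5 CD8_Tnaive arrays, and Psmb9 is lowest on the Neuron arrays.

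Psmb8 replaces Psmb5 in the immune form. Its levels were 4.70, 4.66 and 4.59 on the Neuron arrays, 5.27, 5.23 and 5.38 on the Astrocyte arrays, and 8.18, 8.42 and 8.26 on the Microglia arrays. They were 7.84, 7.62 and 7.41 in ESdM_20, 7.19, 7.04 and 6.86 in ESdM_22, and 6.26, 7.33, 7.25 and 7.18 in MF. BM-DC gave 10.68, 10.68 and 10.80, and CD8_Tnaive 8.55, 6.10, 8.62, 8.37 and 8.19. BM-DC was thus above all other groups and the brain cells Neuron and Astrocyte below all others, while 1 CD8_Tnaive array lay far under the other 4. In the order of means, BM-DC exceeded the next group, Microglia, by 2.43 (SE 0.39, adjusted p = 7.65e-06). From Microglia through CD8_Tnaive, ESdM_20 and ESdM_22 to MF no neighbouring difference passed. The ends of this row did differ, since Microglia over MF passed, as given below, though not under median scaling (adjusted p = 0.248). MF exceeded Astrocyte by 1.71 (SE 0.37, adjusted p = 0.000234), and Astrocyte over Neuron did not pass (adjusted p = 0.178).

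Psmb9 replaces Psmb6. It was undetected on all 3 Neuron arrays (4.39, 4.24 and 4.23) and detected on all 24 others. Its levels were 7.04, 6.70 and 6.54 in Astrocyte, 9.56, 9.89 and 9.35 in Microglia, 7.26, 7.24 and 7.31 in ESdM_20, and 7.00, 7.07 and 7.66 in ESdM_22. MF gave 8.84, 8.57, 8.67 and 8.73, BM-DC 9.72, 9.56 and 9.46, and CD8_Tnaive 10.01, 9.65, 9.57, 9.60 and 9.46. CD8_Tnaive, Microglia and BM-DC overlapped at the top, and no difference between them as neighbours passed. BM-DC exceeded MF by 0.88 (SE 0.16, adjusted p = 4.2e-05), a call that was lost when arrays were scaled to a common median (0.46, adjusted p = 0.142). MF exceeded ESdM_20 by 1.44 (SE 0.16, adjusted p = 1.59e-08), so both lines stood between MF and Astrocyte. ESdM_22 exceeded Astrocyte by 0.49 (SE 0.17, adjusted p = 0.0133), which median scaling also undid (adjusted p = 0.22).

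Psmb10 replaces Psmb7 and varied less. Levels were 7.44, 7.41 and 7.16 in Neuron, 8.89, 8.16 and 8.60 in Astrocyte, 10.08, 10.12 and 10.04 in Microglia, 8.72, 8.84 and 9.11 in ESdM_20, and 9.16, 8.97 and 8.75 in ESdM_22. They were 8.97, 9.31, 9.03 and 9.08 in MF, 9.62, 9.84 and 9.80 in BM-DC, and 9.94, 9.87, 9.74, 9.93 and 9.64 in CD8_Tnaive. Microglia, CD8_Tnaive and BM-DC formed the upper end, with no difference between neighbours that passed. BM-DC over MF passed (0.65, SE 0.14, adjusted p = 0.000443, but 0.492 under median scaling), and so did Astrocyte over Neuron (1.22, SE 0.15, adjusted p = 1.14e-07).

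Psme1 and Psme2 form a shared cap, but their probes followed different groups. Psme1 was highest in CD8_Tnaive (12.03, 12.16, 11.87, 12.12 and 11.76), then in Microglia (11.10, 11.27 and 11.18). It was 9.89, 10.01 and 10.17 in ESdM_20, 10.18, 10.20 and 10.27 in ESdM_22, 10.01, 10.08, 9.92 and 9.99 in MF, and 9.85, 10.002 and 9.69 in BM-DC. Astrocyte gave 9.68, 9.35 and 9.50 and Neuron 8.95, 9.01 and 9.27. CD8_Tnaive exceeded Microglia by 0.80 (SE 0.11, adjusted p = 4.44e-07) and Microglia exceeded ESdM_22 by 0.97 (SE 0.12, adjusted p = 3.32e-06), whereas the lines, MF and BM-DC were not separated as neighbours. Psme2 stood out in 1 group. It was 8.62, 8.74 and 8.75 in BM-DC, undetected on all 5 CD8_Tnaive arrays (4.42 to 4.58), and between 4.41 and 5.40 in the other 6 groups, close to background. BM-DC exceeded the next group, Microglia, by 3.46 (SE 0.16, adjusted p = 1.46e-15). The array holds 1 probe for Psme2, and how well it reads the gene in the dim groups was not tested.

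Across the 27 tested constitutive subunits (core alpha, core beta, base and other regulatory particle), Microglia held the highest group mean for 9 and the lowest for none, and CD8_Tnaive held the lowest for 12 and the highest for none. BM-DC held the lowest for 8. Over all genes tested, Microglia held the highest mean for 6.96%, CD8_Tnaive the lowest for 18.8% and BM-DC the lowest for 16.2%. The lines lay close to Microglia. The median of group mean minus gene mean over these subunits was 0.41 in Microglia, 0.32 in ESdM_20 and 0.37 in ESdM_22 (log2). The scaling bears on this order, since with each array scaled to a common median MF held the highest for 10 and Microglia for 8, while the lowest were spread over Astrocyte (7), BM-DC (7), CD8_Tnaive (6), Neuron (5) and ESdM_22 (2).

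**Figure D2:**
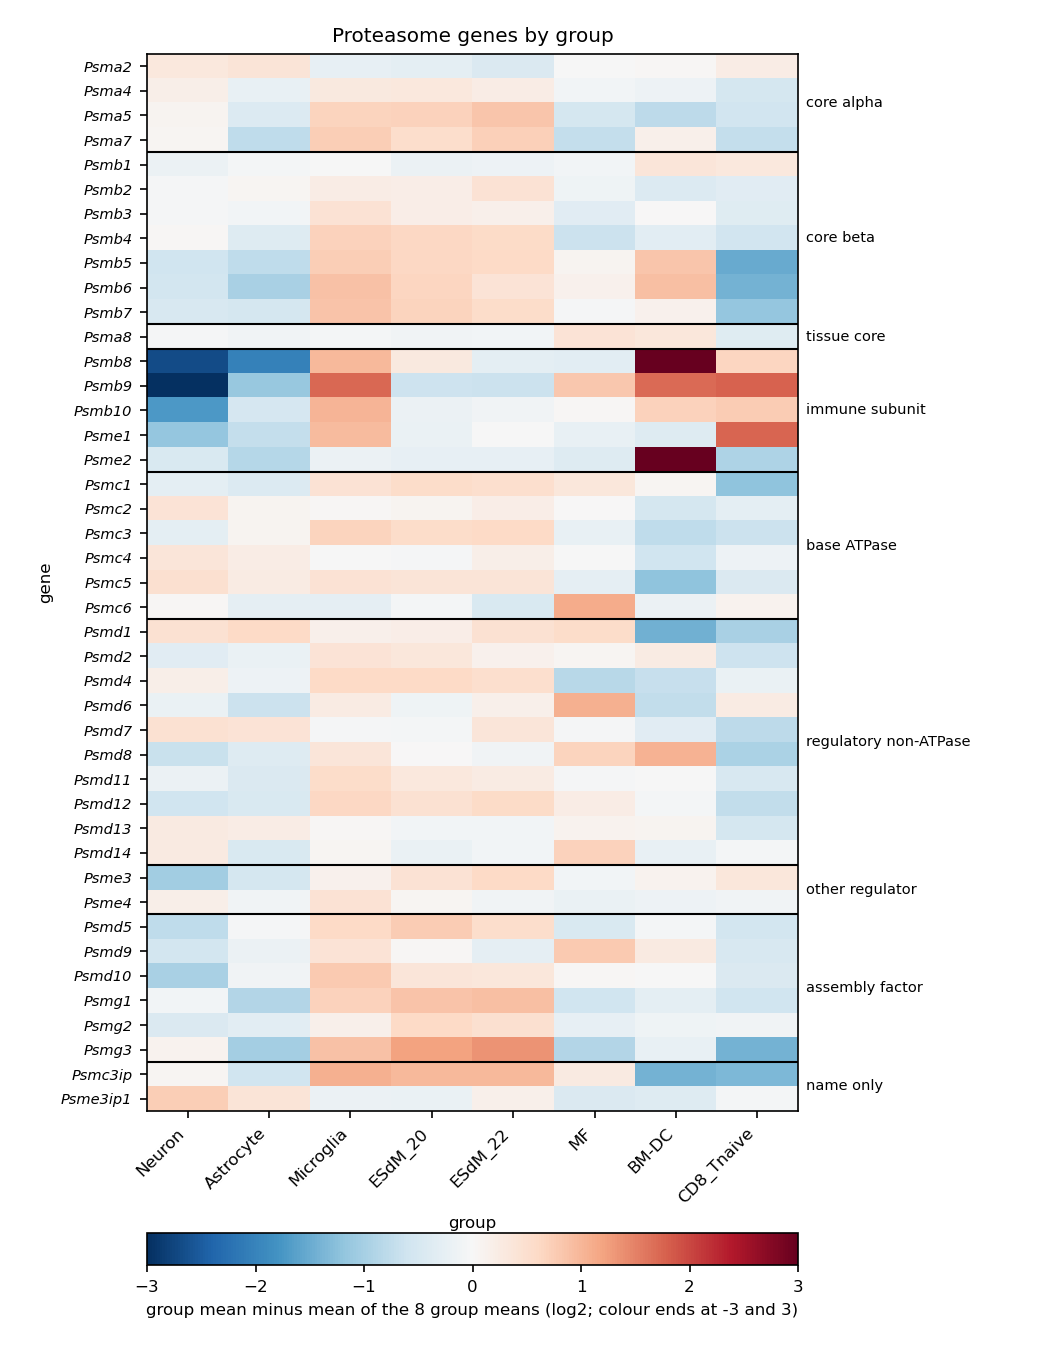
Group mean minus the mean of the 8 group means for the 43 tested genes (rows, by role) in the 8 groups (columns), on the log2 scale, with red above and blue below the mean of the gene and the colour ending at -3 and 3. The strongest colours lie in the 5 immune subunits, whose median range of 4.20 compares with 1.18 to 1.63 in the core, base, regulatory and assembly classes.

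The stem cell-derived lines against Microglia address the main question of the study. Both lines together held less RNA for Psmb9, Psmb10 and Psme1 than Microglia, by 5.07-fold, 2.23-fold and 2.09-fold, while no core or base subunit passed. Of 43 members, 0 were higher and 6 lower, where 6.35% of all genes were higher and 5.85% lower. With a difference of at least 2-fold, 0 were higher and 3 lower (0.601% and 1.47% of all genes), and the 3 were these immune subunits. The arrays of the groups did not overlap for 14 of 43 members, against 20.8% of all genes. The median difference was -1.06 over the 5 immune subunits, -0.10 over all members and 0.01 over all genes (log2).

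Psmb9 was 7.00 to 7.66 on the 6 ESdM arrays and 9.35 to 9.89 on the Microglia arrays, a difference of -2.34 (SE 0.14, 95% interval -2.64 to -2.05, adjusted p = 4.36e-12). Psmb10 differed by -1.16 (SE 0.13, interval -1.43 to -0.89, adjusted p = 4.43e-07), and Psme1 by -1.06 (SE 0.11, interval -1.28 to -0.85, adjusted p = 4.8e-08). For each of these genes every ESdM array lay below every Microglia array. All 3 passed in each of the 39 other settings tried, including each of the 2 shared chips alone, where Psmb9 differed by -2.43 and -2.28. Psmb8 was also lower on every ESdM array, by 0.96 on average (-0.96, SE 0.34, interval -1.66 to -0.26), but did not pass (adjusted p = 0.0671). That spread comes from the pooled fit, in which CD8_Tnaive replicate 2 stands apart. Without this array the difference stayed at -0.96 and passed (adjusted p = 0.000149), and it passed with the compared groups alone (adjusted p = 0.000326). In all it passed in 8 of the 39 other settings, with adjusted p from 0.000149 to 0.476. Psme2 was 4.89 to 5.40 in the lines and 5.14 to 5.39 in Microglia, a difference of -0.06 (interval -0.35 to 0.23) near background.

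Outside the immune form, 3 genes fell by less than 2-fold. Psme4, an activator that works without ubiquitin, was 9.32 to 9.93 in the lines and 10.04 to 10.24 in Microglia (-0.45, SE 0.11, adjusted p = 0.00727). Psmd10, a chaperone of the regulatory base, was 9.55 to 9.97 against 10.12 to 10.33 (-0.42, SE 0.10, adjusted p = 0.00607). Psmd8, a lid subunit, was 9.87 to 10.54 against 10.53 to 10.81, so that its arrays overlapped (-0.42, SE 0.13, adjusted p = 0.0363). None of these 3 passed under median scaling (adjusted p = 0.796, 0.715 and 0.76), which left 0 higher and 3 lower members, the immune ones. Of all genes, 1.45% were higher and 1.87% lower under that scaling. Leaving out Microglia replicate 3 ended the call of Psmd10 (adjusted p = 0.0594), and leaving out replicate 1 that of Psme4 (0.0564). Neither passed within a single shared chip. Psmd8 lost its call with the shared chip as a block (-0.41, adjusted p = 0.0936), with the compared groups alone (0.0617) and with the mean of all its probes (-0.22, adjusted p = 0.171), and without any 1 of 6 arrays, namely ESdM_20 replicate 1 or 2, ESdM_22 replicate 1 or 3, or Microglia replicate 1 or 2 (adjusted p from 0.0561 to 0.205).

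**Figure D3:**
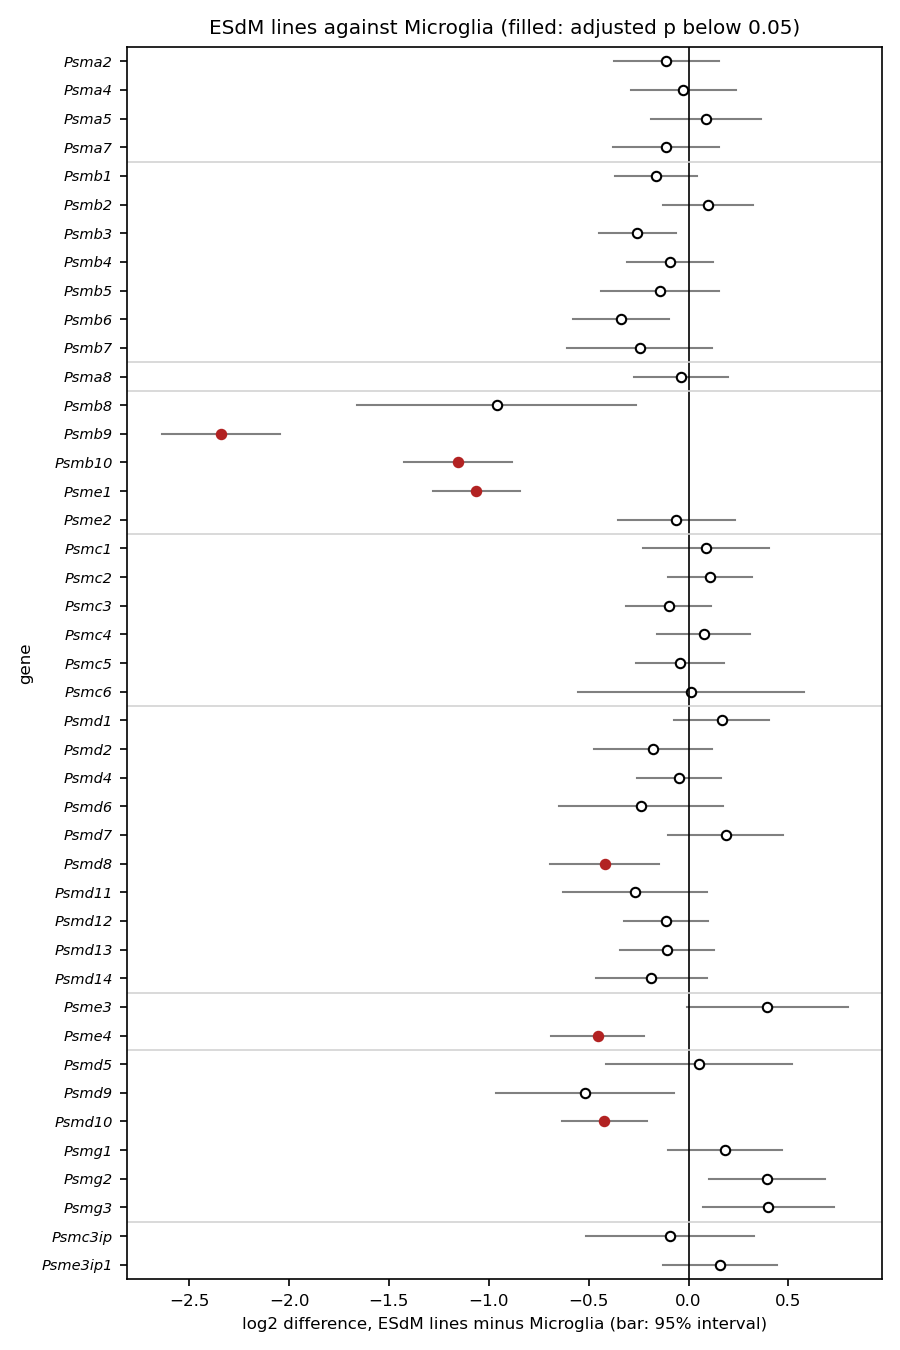
Log2 difference of both ESdM lines from Microglia (horizontal axis) for the 43 tested genes (vertical axis, by role), with 95% intervals as bars and filled points for an adjusted p below 0.05. Psmb9 (-2.34), Psmb10 (-1.16) and Psme1 (-1.06) lie far to the left, and the core and base subunits lie around 0.

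Genes that work beside the immune form were measured in the same comparison. Of 11 antigen processing genes, 6 were lower and 0 higher, with a median of -0.86, among them the class I gene H2-T23 (-2.32, adjusted p = 1.99e-07), Tap1 (-2.21, adjusted p = 7.2e-09) and the transporter-bound chaperone Tapbp (-1.70, adjusted p = 0.000582). Of 17 interferon response genes, 15 were lower and 0 higher, with a median of -2.99. The guanylate binding proteins Gbp2 (-8.72, detected on 4 of 6 ESdM arrays, adjusted p = 8.72e-25) and Gbp3 (-5.53, adjusted p = 6.23e-20) fell, and the chemokine Cxcl9 was at least 78.2-fold lower (0 of 6 arrays detected, adjusted p = 6.55e-23). The ESdM arrays lay near background for Gbp2, and its difference ran from -8.77 to -4.49 over the settings tried, that of Gbp3 from -5.62 to -3.97 and the measured one of Cxcl9 from -6.57 to -4.49. The mean level of that list was 8.01 to 8.27 on the Microglia arrays, 5.14 to 5.23 in ESdM_20 and 4.88 to 4.97 in ESdM_22. Microglia was the highest of the 8 groups on it. BM-DC gave 6.99 to 7.25, CD8_Tnaive 6.44 to 7.40, Astrocyte 6.36 to 6.61, MF 6.33 to 6.62 and Neuron 4.54 to 4.62. Cxcl9 was also undetected in Neuron, Astrocyte, MF and BM-DC. The part of this list in the immune subunits' difference was not tested. Of 15 partner genes of the proteasome (shuttles, deubiquitinases, ubiquitin enzymes and regulators), 0 passed in either direction, with a median of -0.00.

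To compare groups within arrays, the level of each constitutive catalytic subunit was taken from that of its immune counterpart on the same array. These values have an arbitrary zero and compare groups only. Psmb8 minus Psmb5 was -1.62 ± 0.43 (SD, n = 6) in the lines and -0.80 ± 0.12 (SD, n = 3) in Microglia, which lay 0.817 apart (-0.817, two-sided exact permutation p = 0.0357). Psmb9 minus Psmb6 was -4.63 ± 0.32 and -2.62 ± 0.26, a difference of -2.002 (exact permutation p = 0.0119), and Psmb10 minus Psmb7 was -2.27 ± 0.29 and -1.35 ± 0.06, a difference of -0.911 (exact permutation p = 0.0119), with the same n. With 84 splits, 0.0119 is the smallest p this design can give, and adjusted over these 3 pairs the values were 0.0357, 0.0178 and 0.0178. On these arrays, all 3 immune subunits were lower on average in both lines, relative to the subunit they replace. Each line is a single derivation, so these p-values do not weigh the spread between derivations. Psmb8 minus Psmb5 lost its call without any 1 of Microglia replicate 1, 2 or 3 (exact p = 0.0714 each), ESdM_20 replicate 2 or 3, or ESdM_22 replicate 1 (exact p = 0.0536 each). Within the first shared chip the differences were -0.461, -2.22 and -0.862, and within the second -1.14, -1.80 and -0.926, where the few arrays cannot reach 0.05 (exact p no lower than 0.25 in the first and 0.1 in the second).

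**Figure D4:**
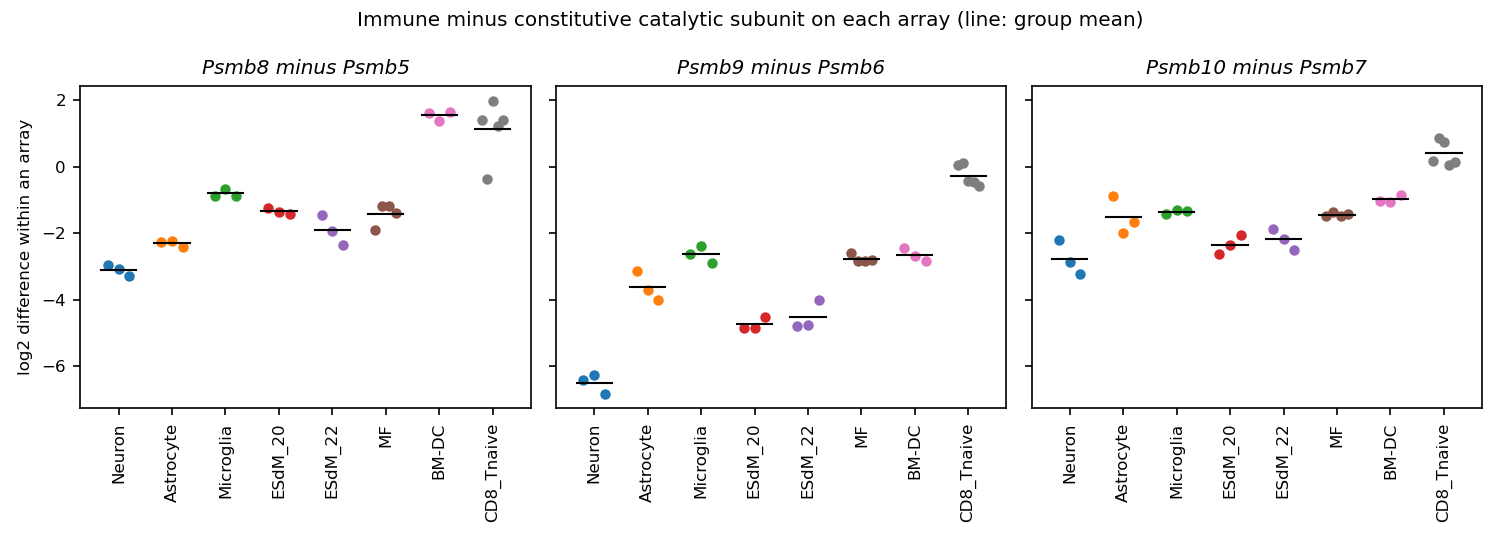
Log2 level of an immune catalytic subunit minus that of its constitutive counterpart on the same array (vertical axis, arbitrary zero) by group (horizontal axis), with points for arrays and lines for group means. Both ESdM lines lie below Microglia in each panel, and BM-DC or CD8_Tnaive is highest.

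Across all groups these differences ran over a wide span. Psmb8 minus Psmb5 had its highest means in BM-DC (1.55 ± 0.15, SD, n = 3) and CD8_Tnaive (1.13 ± 0.88, n = 5) and its lowest in Neuron (-3.10 ± 0.17, n = 3). Psmb9 minus Psmb6 was highest in CD8_Tnaive (-0.26 ± 0.31) and lowest in Neuron (-6.50 ± 0.28), where Psmb9 was undetected. Psmb10 minus Psmb7 was again highest in CD8_Tnaive (0.40 ± 0.38) and lowest in Neuron (-2.76 ± 0.52). Neuron was lowest in each pair, and CD8_Tnaive or BM-DC highest. For Psmb8 minus Psmb5, MF (-1.42) lay between ESdM_20 (-1.34) and ESdM_22 (-1.90). For Psmb9 minus Psmb6 these lines (-4.73 and -4.52) lay below Astrocyte (-3.61) and MF (-2.76). For Psmb10 minus Psmb7 they (-2.35 and -2.18) also lay below Astrocyte (-1.50) and MF (-1.44).

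No member passed between the lines ESdM_22 and ESdM_20. Of 43 members, 0 were higher and 0 lower (0.00780% and 0.0156% of all genes, or 0.0234% in either direction), and the arrays did not overlap for 11, against 12.9% of all genes. Psmb8 was lower on every ESdM_22 array than on every ESdM_20 array (-0.59, SE 0.39, interval -1.40 to 0.22, adjusted p = 1). The intervals were -0.37 to 0.32 for Psmb9, -0.24 to 0.38 for Psmb10, -0.06 to 0.45 for Psme1 and -0.34 to 0.34 for Psme2. Psmd7, a lid subunit, was 0.43 higher in ESdM_22 (SE 0.16, interval 0.10 to 0.76, adjusted p = 1).

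Microglia against MF compares the brain cells with cells from bone marrow. In Microglia 6 of 7 core beta and 4 of 5 immune subunits were higher, but of Psmb7, Psmb8, Psmb9 and Psmb10 none passed when arrays were scaled to a common median. Of 43 members, 25 were higher and 5 lower, beside 24.8% and 23.4% of all genes (48.2% in either direction), and the arrays did not overlap for 30, against 55.7% of all genes. With each array scaled to a common median, 7 were higher and 8 lower, beside 10.2% and 28.3% of all genes. The share of calls that were higher was 83.3% in the first case and 46.7% in the second. The median member moved from 0.42 to -0.04, and the median of all genes from 0.01 to -0.12, so the excess of the members over all genes fell from 0.40 to 0.08.

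By role, 3 of 4 core alpha, 6 of 7 core beta, 4 of 5 immune and 5 of 6 assembly genes were higher and none of them lower. Of 6 base ATPases, 2 were higher and 1 lower, and of 10 other regulatory particle genes 3 were higher and 3 lower. Among the immune subunits, Psme1 was higher by 1.18 (SE 0.11, adjusted p = 2.24e-09), Psmb8 by 1.28 (SE 0.37, adjusted p = 0.00473), Psmb10 by 0.99 (SE 0.14, adjusted p = 1.71e-06) and Psmb9 by 0.89 (SE 0.16, adjusted p = 2.44e-05). Under median scaling Psme1 passed, whereas Psmb8 (adjusted p = 0.248), Psmb9 (0.294) and Psmb10 (0.143) did not. MF replicate 1 was low for Psmb8, and without it the difference was 1.04 (adjusted p = 0.0252). Psme2 did not pass (0.21, interval -0.11 to 0.52).

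Psmg3, a chaperone of the alpha ring, was 8.55, 8.33 and 8.35 in Microglia and 6.77, 6.95, 6.40 and 6.53 in MF (3.36-fold, adjusted p = 2.81e-09). The gate subunit Psma7 was 11.005, 11.05 and 10.93 against 9.59, 9.28, 9.61 and 9.70 (2.73-fold, adjusted p = 1.81e-09). The ubiquitin receptor Psmd4 was 12.30, 12.24 and 12.30 against 10.86, 11.04, 10.73 and 10.79 (2.68-fold, adjusted p = 3.38e-11). None of these groups overlapped, and all 3 genes passed under median scaling too. The core subunits Psmb4 (2.52-fold, adjusted p = 2.03e-10) and Psma5 (2.28-fold, adjusted p = 1.05e-07) and the alpha ring chaperone Psmg1 (2.44-fold, adjusted p = 5.35e-08) also exceeded 2-fold. Psmd5, a chaperone of the base, was 2.07-fold higher (adjusted p = 0.00074), though not under median scaling (0.139), and the same held for the catalytic Psmb7 (1.87-fold, 0.35 under median scaling), the ATPase Psmc3 (1.85-fold, 0.291) and Psmc3ip (1.73-fold, 0.531).

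Fewer members were lower in Microglia. The ATPase Psmc6 was 4.86, 4.67 and 4.61 in Microglia, with the last array undetected, and 6.28, 5.61, 5.89 and 6.63 in MF (-1.39, SE 0.30, adjusted p = 0.000293, but -0.57 without background correction). The lid subunit Psmd6 (-0.81, adjusted p = 0.00264), the deubiquitinase Psmd14 (-0.65, adjusted p = 0.000516) and Psma8 (-0.48, detected on 2 of 3 Microglia arrays, adjusted p = 0.00174) were lower by less than 2-fold. Of 15 partner genes, 5 were higher and 5 lower. The higher ones included the shuttle Ubqln4 (2.91), the ubiquitin activating enzyme Uba6 (1.76) and the maturation factor Pomp (1.17), and the lower ones Ufd1 (-1.32), the deubiquitinase Usp14 (-1.27) and Ubqln1 (-0.77, but 0.21 and not passed with the mean of all its probes). Of 11 antigen processing genes 3 were higher and 3 lower, with Tap1 up by 2.04, Nlrc5, an activator of class I genes, by 1.87, and H2-K1 down (-1.30). Of 17 interferon response genes 9 were higher and 2 lower.

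MF against BM-DC compares the pair of bone marrow groups. Psmb8 was 13.1-fold and Psme2 12.7-fold lower in MF, sizes that were smaller in other settings, and 5 of 6 base ATPases were higher there. Of 43 members, 10 were higher and 12 lower, against 24.8% and 18.1% of all genes, and by at least 2-fold 4 were higher and 2 lower, against 10.2% and 7.51%. The arrays did not overlap for 23, against 48.1%. Under median scaling 11 were higher and 2 lower, against 25.3% and 9.36% of all genes. The higher share of member calls was 45.5% without this scaling and 84.6% with it. The median of all genes moved from 0.03 to 0.10 between these scalings and that of the members from -0.05 to 0.27. BM-DC had the dimmest arrays, and the part of this in the differences was not tested.

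The lower side held 4 of 5 immune and 5 of 7 core beta subunits. Psmb8 differed by -3.71 (SE 0.37, interval -4.47 to -2.96, 13.1-fold, adjusted p = 5.39e-09), and a second probe of the gene by -1.81. With the mean of both probes it was -2.76. Psme2 differed by -3.67 (SE 0.15, interval -3.98 to -3.35, 12.7-fold, adjusted p = 2.18e-16), and by -2.24 without background correction, its MF level (4.91 to 5.19) being near background. These were the 2 lower calls that remained under median scaling. Psmb9 (-0.88, adjusted p = 4.2e-05) and Psmb10 (-0.65, adjusted p = 0.000443) were lower by less than 2-fold and did not pass under it. Psme1 did not pass (0.15, SE 0.11, interval -0.08 to 0.39), and its second probe gave -0.76, so its probes disagree here. The core subunits Psma7 (-0.88, adjusted p = 9.09e-06), Psmb6 (-0.77, adjusted p = 1.44e-05) and Psmb5 (-0.75, adjusted p = 0.000256) were lost under median scaling as well (0.143, 0.117 and 0.53).

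The higher side held 5 of 6 base ATPases and 4 of 10 other regulatory particle genes. Psmd1, a scaffold of the base, was 12.38, 12.30, 12.37 and 12.20 in MF and 10.32, 10.20 and 10.47 in BM-DC (3.94-fold, adjusted p = 1.05e-12). Psmd6 was 7.35, 7.50, 7.75 and 8.13 against 5.68, 6.07 and 5.88 (3.50-fold, adjusted p = 1.25e-07), and Psmc6 was higher by 1.29 (2 of 3 BM-DC arrays detected, adjusted p = 0.000801). Psmc3ip was higher by 1.70 (adjusted p = 4.85e-07). Without background correction Psmd6 was higher by 1.09, Psmc6 by 0.53 and Psmc3ip by 0.87, and all 3 passed. Psmd14 (0.93, adjusted p = 8.07e-06), Psmc5 (0.93, adjusted p = 2.67e-07) and Psmc4 (0.58, adjusted p = 0.000301) were higher by less than 2-fold.

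Among 15 partner genes, 9 were higher in MF and 2 lower. The deubiquitinases Uchl5 (1.87) and Usp14 (1.86), both bound to the regulatory particle, and the shuttle Rad23b (1.62) rose, while Uba6 (-1.30) and the transcription factor Nfe2l2 (-0.46, lost under median scaling) were lower. Of 11 antigen processing genes 3 were higher, led by the chaperone Calr (2.82), and 6 lower, led by Tap2 (-1.83). Of 17 interferon response genes 0 were higher and 10 lower, among them Isg15 (-2.54) and Gbp2 (-2.09). MF enters this comparison and the one with Microglia, so their results are not independent.

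Neuron against Astrocyte compares brain cells prepared at different ages. Astrocyte had more Psmb9, Psmb10 and Psme1, and most core changes were under 2-fold. Of 43 members, 12 were higher in Neuron and 6 lower, against 27.3% and 28.4% of all genes. By at least 2-fold 1 was higher and 2 lower, against 14.8% and 17.6% of all genes (32.4% in either direction). The arrays did not overlap for 19, against 60.7%. Under median scaling 1 was higher and 3 lower, against 16.2% and 25.6% of all genes. The higher share of member calls was 66.7% without this scaling and 25% with it, and the median member moved from 0.08 to -0.10. The Astrocyte arrays carried the macrophage lineage genes given above, 8 of 9 detected on all arrays and a list mean of 8.79 to 9.44, and the Neuron arrays 1 of 9 with a list mean of 4.39 to 4.47. The part of those cells in the immune subunits was not tested.

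Psmb9 was at least 4.49-fold lower in Neuron (0 of 3 against 3 of 3 arrays detected, adjusted p = 9.1e-13). Without background correction the measured difference was -1.11, where it was -2.47 with it. Psmb10 was 2.32-fold lower (-1.22, SE 0.15, adjusted p = 1.14e-07) and Psme1 1.35-fold lower (-0.44, SE 0.12, adjusted p = 0.00339, but 0.0614 under median scaling). Psmb8 was lower on every Neuron array but did not pass (-0.64, SE 0.39, interval -1.45 to 0.16, adjusted p = 0.178). It passed without CD8_Tnaive replicate 2 (adjusted p = 0.00474), whose spread enters the pooled fit. Psme2 was higher by 0.41 (adjusted p = 0.0376), with 1 of 3 Neuron arrays undetected, and lost its call in 10 of 36 other settings. Its levels lay near background in both groups.

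Psmg3 was 7.75, 7.45 and 7.73 in Neuron and 6.53, 6.41 and 6.59 in Astrocyte (2.20-fold, adjusted p = 6.31e-06), the only other gene past 2-fold. Psma7 (0.83, adjusted p = 2.51e-05), Psmg1 (0.80, adjusted p = 0.000112) and Psmd14 (0.73, adjusted p = 0.000214) were higher in Neuron by less than 2-fold and did not pass under median scaling. Psmd10 was 8.57, 8.29 and 8.52 against 9.32, 9.25 and 9.42 (-0.87, SE 0.12, adjusted p = 4.91e-07). Psmd5 (-0.73, adjusted p = 0.0191) rested on Neuron replicate 1, where it was undetected, and without that array the difference was -0.31 (adjusted p = 0.281). Without Astrocyte replicate 3 it was also lost (0.0667), as was Psmc3 under median scaling (-0.38, adjusted p = 0.00756 and then 0.075). Leaving out Astrocyte replicate 2 reduced the higher calls from 12 to 7.

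Of 15 partner genes 4 were higher in Neuron, with Ubqln4 (1.07) and the ligase Ube3c (1.04) first, and 3 lower. The lower ones were Nfe2l1 (-1.53), which drives proteasome genes, Nfe2l2 (at least 9.60-fold lower, undetected in Neuron) and the unfoldase Vcp (-0.34). Of 11 antigen processing genes 9 were lower and 0 higher, with B2m at -6.00 and Tap2 at least 12.4-fold lower. Of 17 interferon response genes 11 were lower and 0 higher.

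**Figure D5:**
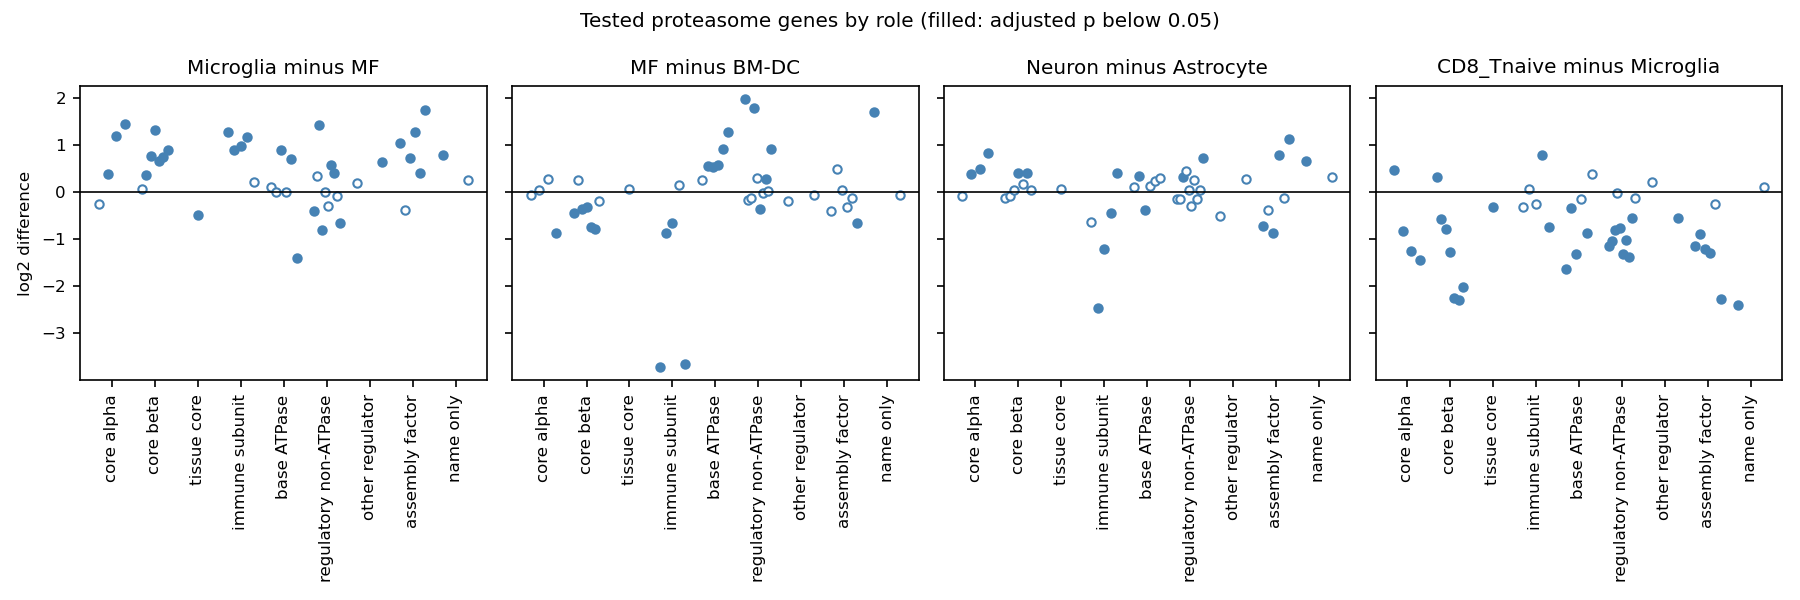
Log2 difference (vertical axis) of the 43 tested genes by role (horizontal axis) in 4 comparisons, with filled points for an adjusted p below 0.05 and no error bars. The 2 lowest points of MF minus BM-DC are Psmb8 (-3.71) and Psme2 (-3.67), and the core beta points below -2 in CD8_Tnaive minus Microglia are Psmb5, Psmb6 and Psmb7.

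CD8_Tnaive against Microglia gave the most calls among members of the 6 comparisons. The constitutive catalytic subunits Psmb5, Psmb6 and Psmb7 were over 4-fold lower in CD8_Tnaive, whereas Psmb8, Psmb9 and Psmb10 did not pass. Of 43 members, 3 were higher and 30 lower, against 26.4% and 31.5% of all genes, or 58.0% in either direction. Of them 18, all lower, differed by at least 2-fold, as did 32.8% of all genes in either direction. The arrays did not overlap for 33, against 54.6% of all genes. Under median scaling the counts were 3 and 20, against 27.6% and 20.4% of all genes. The median member was -0.80 without this scaling and -0.50 with it, while the median of all genes stayed at -0.02 and 0.02. The comparison shares the Microglia arrays with those of the ESdM lines and MF. The macrophage list averaged 5.66 to 6.99 on the CD8_Tnaive arrays, with 4 of 9 genes detected on all of them, and its part in the result was not tested.

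Psmb6 was 9.96, 9.55, 9.99, 10.06 and 10.05 in CD8_Tnaive and 12.17, 12.27 and 12.23 in Microglia (-2.30, SE 0.12, 4.93-fold, adjusted p = 5.75e-15). Psmb5 was 7.15, 6.46, 6.63, 7.16 and 6.79 against 9.06, 9.07 and 9.13 (-2.25, SE 0.15, 4.76-fold, adjusted p = 6.22e-13). Psmb7 was 9.75, 8.99, 8.98, 9.88 and 9.48 against 11.50, 11.42 and 11.39 (-2.02, SE 0.18, 4.04-fold, adjusted p = 2.71e-10). No array of 1 group reached the other for these 3, and all passed under median scaling (-1.93, -1.89 and -1.67). Their immune counterparts did not pass, with Psmb8 at -0.32 (interval -1.04 to 0.40), Psmb9 at 0.06 (interval -0.25 to 0.37) and Psmb10 at -0.26 (interval -0.54 to 0.02). Under median scaling these 3 were at 0.05, 0.52 and 0.19 (adjusted p = 0.958, 0.0598 and 0.574). Without CD8_Tnaive replicate 2 Psmb8 was at 0.14 (adjusted p = 0.532). With the mean of all its probes Psmb10 passed as lower (-0.40, adjusted p = 0.00323). Of the cap genes, Psme1 was higher by 0.80 (SE 0.11, 1.74-fold, adjusted p = 4.44e-07). The only Psme2 probe read at least 1.51-fold lower and was undetected on all 5 arrays (adjusted p = 8.4e-05). Its Microglia level was near background too, and how well this probe reads the gene was not tested.

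By role, 3 of 4 core alpha, 6 of 7 core beta, 4 of 6 base ATPase, 8 of 10 other regulatory particle and 5 of 6 assembly genes were lower. Psmg3 was 5.51, 6.57, 5.98, 6.42 and 6.15 in CD8_Tnaive against 8.55, 8.33 and 8.35 (4.87-fold, adjusted p = 3.55e-12), and Psmc3ip was 5.30-fold lower (adjusted p = 1.69e-10). Among the ATPases, Psmc1 was 3.12-fold (adjusted p = 9.16e-10) and Psmc3 2.49-fold lower (adjusted p = 3.44e-11). In the core, Psma7 (2.71-fold), Psmb4 (2.43-fold) and Psma5 (2.37-fold) were lower. In the regulatory particle the lower genes past 2-fold were Psmd12 (2.60-fold), Psmd8 (2.50-fold), Psmd1 (2.20-fold) and Psmd11 (2.03-fold, lost under median scaling at 0.0852). Psmd2 is also counted there, but it was detected on 2 of 5 CD8_Tnaive arrays, so its measured difference of -1.03 is against a level near background and was -0.39 without background correction. The chaperones Psmg1 (2.44-fold), Psmd10 (2.30-fold) and Psmd5 (2.21-fold, 4 of 5 arrays detected) completed the 18. Without background correction Psmg3 was at -1.52, Psmc3ip at -1.41 and Psmd5 at -0.54, and with the mean of all probes Psmd12 was at -0.63 and Psmd8 at -0.61, all of which passed. The higher members besides Psme1 were the core subunits Psma2 (0.48, adjusted p = 0.00297) and Psmb1 (0.31, adjusted p = 0.0103).

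Partner genes went the same way, with 2 of 15 higher and 10 lower, among the latter Ubqln4 (-2.54), Uba6 (-2.27) and Nfe2l2 (-2.23). The higher ones were Ufd1 (0.87) and Ubqln1 (0.43, which turned to -0.39 with the mean of all its probes). Antigen processing genes were mixed, with 5 of 11 higher, led by H2-K1 (2.34) and Nlrc5 (1.44), and 3 lower, Calr (-2.01), Tapbp (-1.83) and Pdia3 (-1.35), which load peptide on class I. Of 17 interferon response genes 3 were higher, Rsad2 (2.26), Irf9 (2.24) and Irf7 (1.17), and 9 lower.

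As a description, the 12771 other genes tested were ranked by the Pearson correlation of their 8 group means with the mean of Psmb8, Psmb9 and Psmb10. The nearest were Pank2 (r = 0.979), Klhl34 (0.973), H2-M3 (0.967), H2-T23 (0.964), Cd82 (0.961), Ric1 (0.960), Capn1 (0.959), Tnfrsf26 (0.951), Cmc1 (0.948) and Gsdmd (0.945). H2-M3 and H2-T23 are class I genes outside the classical group. Klhl34 ran only from 4.43 to 4.81, near background, so its place rests on small differences. All these points share arrays and normalization, and 8 means are few.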

How the data were processed

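Per the labels' protocols, Trizol lysates gave RNA that was column-purified with DNase I, and biotinylated cRNA was made and hybridised to Illumina mouse bead arrays. Scanner software and build are not given in the sources used here. The deposited table holds non-normalized bead intensity with a detection p-value for each, per the file headers. The deposited series matrix holds intensity that, judged from its values, was quantile normalized by the authors, and it served as an alternative. Intensities were corrected for background, with an offset of 16, quantile normalized and set to log2 with neqc of limma 3.58.1 (R 4.3.3). A probe entered when 3 or more arrays detected it (p below 0.05), and the probe with the highest mean stood for each gene. A limma fit with 1 mean per group over all 27 arrays was tested on simulated data. Fold changes of at least 2 are named as such, and the number of arrays limits precision. The genes named are the 5 immune subunits in each comparison, members past the test by 2-fold and, beyond these, the next 3 by size in each direction that passed (where none passed, the 2 largest differences). Across groups they are the 5 widest and 5 narrowest ranges. Members, lists and tests were chosen with earlier results of these data known.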

Additional observations from a re-analysis of the deposited data

Results flagged for a closer look

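Values of 1 array stood apart from the rest of its group in 10 of 72 groups of 4 or 5 arrays examined, by a test that chance meets in about 1 in 20 groups. CD8_Tnaive replicate 2 was low for Psmb8 (6.10, with the nearest array at 8.19), Psmb6 (9.55, nearest 9.96), Psmc3 (8.71, nearest 9.04) and Psmd5 (4.70, nearest 5.49). CD8_Tnaive replicate 4 was low for Psmc3ip (5.10, nearest 5.53) and Psmd1 (10.33, nearest 10.82), and replicate 3 was high for Psmc5 (9.67, nearest 9.31). In MF, replicate 1 was low for Psmb8 (6.26, nearest 7.18), replicate 3 high for Psmd2 (5.44, nearest 5.22) and replicate 4 low for Psme4 (9.38, nearest 9.54). All levels are log2 intensities.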

How the results depend on the processing

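Scaling each array to a common median gave 7 higher and 8 lower members for Microglia against MF, 2 lower for MF against BM-DC, 1 higher and 3 lower for Neuron against Astrocyte, 3 lower for the ESdM lines against Microglia, and 9 instead of 14 separated neighbouring groups. It turned Tap2 in Microglia against MF to -0.15, and the mean of all probes turned Ubqln1 to -0.39 (CD8_Tnaive against Microglia) and 0.21 (Microglia against MF). The cause was not tested. The shares of all genes called under median scaling are given above with each of the comparisons counted here. For the ESdM lines against Microglia, 2 members were higher with chip as a block, without background correction, with the compared groups alone and with the series matrix values, and 1 with the mean of all probes, against 0. Without background correction and with the series matrix values 9 were lower, against 6. Of 154 named differences, 39 moved by over 1.5 times in fold without background correction and 22 with the mean of all probes, each toward a smaller size. Leaving out each array gave 0 to 1 higher (1 without CD8_Tnaive replicate 1 or 2) and 4 to 8 lower there, and 7 to 13 higher for Neuron against Astrocyte (7 without Astrocyte replicate 2). The within-array differences ranged from -0.896 to -0.672 for Psmb8 minus Psmb5, from -2.13 to -1.88 for Psmb9 minus Psmb6 and from -0.992 to -0.837 for Psmb10 minus Psmb7. Within the shared chips they were -0.461 and -1.14, -2.22 and -1.80, and -0.862 and -0.926, with fewer arrays. Replicate numbers did not pair the samples (r over 0.1 in 6 of 84 same-number pairs). The replicate block moved no count by over 1.5 times, and of the named calls it ended that of Psme2 in Neuron against Astrocyte (0.41, adjusted p = 0.0534). Chip as a block could not be fitted for Neuron against Astrocyte, which lie on 1 chip. A random chip block over all arrays, with a correlation of 0.03, was added after seeing the data. Signal near background limits Psme2, Psmc6, Psma8 and Psmd2.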

Other observations

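Some members had further probes that differed from the one used. In MF against BM-DC, the 4 probes of Psmb7 gave -1.11, -0.81, -0.18 (the one used) and 0.36. In Microglia against MF, a second probe of Psmd12 gave -1.18 where the one used gave 0.42, a second probe of Psmc2 gave -1.16 against 0.01, and a second probe of Psmd11 gave -0.62 against 0.58. A dimmer probe of Psmd7 was 1.11 higher in the ESdM lines than in Microglia, where the one used gave 0.18. These probes were singled out after their values were seen.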
